A study of Mus musculus with 18 samples.

Results

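FoxO transcription factors switch on genes that spare glucose, dampen anabolic signals and hold the cell cycle, and 10 such genes of metabolism and stress are described here: Pdk4, Txnip, Klf15, Irs2, Sesn3, Klhl24, Gadd45a, Ccng2, Bcl6 and Cited2. They were chosen by name, as genes described elsewhere as FoxO targets, from the 50600 gene rows of the tables. The rule uses no measured value, but the members and the gene lists used below were chosen with earlier results of these data known. Shares of called members are therefore not those of a blind choice of genes. The cells are C2C12, a mouse myoblast line that withdraws from the cell cycle and fuses into myotubes when serum is reduced. Cells stably carrying a control plasmid (control line), the guide plasmid px459-Mapk6sg (ERK3 line) or px459-Mk5sg (MK5 line) were compared. The latter 2 are called the depleted lines here. Mapk6 is the gene of ERK3, a MAP kinase of the atypical kind, and Mapkapk5 that of MK5, its partner kinase. Libraries came from cells in growth medium (GM) or from cells kept for 2 days in differentiation medium (DM2), 3 per line and medium, which makes 6 groups. The labels do not say whether replicates came from separate cultures or whether a line is 1 clone, so p-values measure only the spread between these libraries, which may be technical.

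When insulin or growth factor signals are strong, Akt phosphorylates FoxO proteins and holds them outside the nucleus, and when the signals weaken FoxO enters the nucleus and binds a short core motif in its targets. In skeletal muscle these targets serve fasting and wasting: they turn oxidation from glucose to fat, restore insulin sensitivity, curb mTORC1 and speed protein breakdown. Many are also driven by other factors (PPARs, the glucocorticoid receptor, p53, the glucose-sensing MondoA), so their RNA is no direct reading of FoxO activity.

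The libraries held 17.5 to 23.4 M reads in genes (M, 1000000 reads), and 13939 genes passed the filter on low counts, 9 of the 10 members among them. Mapk6 RNA was lower than control in the ERK3 line at DM2 (1.81-fold, log2 fold change -0.86 ± 0.12 standard error, SE, edgeR adjusted p = 2.18e-05) but not called in GM (-0.15 ± 0.12, adjusted p = 0.464), and RNA level does not measure editing of the gene. Mapkapk5 drew only 11 to 32 counted reads in a library, and the authors' RSEM values for it were 52.8, 59.4 and 54.3 TPM (transcripts per 1000000) in control GM against 30.9, 33.4 and 35.7 in MK5 GM. The counts and TPM of Mapkapk5 disagree in scale for a reason not resolved here, so neither is a firm check of the MK5 label. Foxo3 was lower in both depleted lines in GM (log2 -0.34 ± 0.09 in ERK3, adjusted p = 0.0315, and -0.31 ± 0.09 in MK5, adjusted p = 0.0399) and at DM2 (-0.37 ± 0.09, adjusted p = 0.00192, and -0.46 ± 0.09, adjusted p = 0.000643). Foxo1 was higher in the ERK3 line at DM2 (0.53 ± 0.14, adjusted p = 0.00294), at 99.4, 121 and 75.2 CPM against 62.5, 65.0 and 76.4 in control, so that the third library overlapped with control and the other two were those with most reads outside genes. It was not called in the MK5 line (0.01 ± 0.14, adjusted p = 0.953). Reads outside genes, a sign of RNA or library quality, made up 2.40 to 3.22% of all reads in GM and in control DM2, but 5.55, 7.73 and 3.79% in the 3 ERK3 DM2 libraries and 3.96, 4.11 and 2.84% in the 3 MK5 DM2 libraries. All 11 myoblast and myotube markers were tested, and their summed level was 1264 to 1515 CPM (reads per 1000000) in control GM, 1657 to 2058 in the depleted lines in GM and 4133 to 5629 at DM2. At DM2 4 of the 11 were called lower and 3 higher in the ERK3 line (median log2 fold change -0.44), where 27.8% of all genes were called lower and 28% higher. In the MK5 line 1 was lower and 3 higher (median -0.11), where 22.9% of all genes were lower and 22.2% higher. Mymk, which encodes a protein of myoblast fusion, was lower in both lines (-1.86 ± 0.40, adjusted p = 0.00129, and -1.28 ± 0.40, adjusted p = 0.0162). The 3 markers higher in the ERK3 line were Des (0.76), Pax7 (0.57) and Tnnt2 (0.42). The summed levels of 5 adipocyte (3 with no read), 5 macrophage (1 with no read) and 5 endothelial markers stayed at or under 2.73 CPM in every library. The 7 fibroblast markers, 5 of them tested, summed to 3675 to 4646 CPM in control GM and 3151 to 3562 CPM in the depleted lines in GM. At DM2 they summed to 5704 to 7403 CPM in control and 3480 to 5414 CPM in the depleted lines. In GM 4 of the 5 were called lower and 0 higher in each depleted line. Their median log2 fold change in GM was -1.32 in ERK3 and -1.71 in MK5, where 3.06% and 3.74% of all genes were called lower. The part of these marker and quality differences in the results below was not tested except where a value without the affected libraries is given.

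Promoter windows from 250 bases before to 50 after the transcription start were in the RefSeq table (GRCm38.p6) for 9 of the 10 members. They were searched on both strands for the FoxO core GTAAACA, the insulin response variant CAAAACA and the E-boxes CACGTG and CAGCTG. The core occurred in 1 of the 9 members, Txnip, against 4.05% of the 27025 genes in the table, and the variant in 2, Irs2 and Ccng2, against 7.2%. Txnip and Irs2 are shown up to the start as carriers of each motif, and Pdk4, the member with the largest difference between the lines, as one with neither, up to the edge of its annotated gene. Capitals mark the core in Txnip and, in Irs2, the variant as it reads on the other strand. The stretches are chr3:96557707-96557956, plus strand (Txnip), chr8:11008930-11009179, minus strand (Irs2), and chr6:5496310-5496528, minus strand (Pdk4).
Txnip: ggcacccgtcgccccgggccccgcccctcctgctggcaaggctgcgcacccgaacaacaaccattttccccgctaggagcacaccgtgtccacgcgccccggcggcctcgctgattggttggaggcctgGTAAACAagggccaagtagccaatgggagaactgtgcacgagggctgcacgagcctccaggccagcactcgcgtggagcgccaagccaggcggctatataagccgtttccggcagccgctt
Irs2: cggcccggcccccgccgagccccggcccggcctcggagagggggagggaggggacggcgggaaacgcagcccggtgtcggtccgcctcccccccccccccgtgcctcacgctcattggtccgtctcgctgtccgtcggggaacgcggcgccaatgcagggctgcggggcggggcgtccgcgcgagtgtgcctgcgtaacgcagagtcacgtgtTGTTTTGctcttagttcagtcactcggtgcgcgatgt
Pdk4: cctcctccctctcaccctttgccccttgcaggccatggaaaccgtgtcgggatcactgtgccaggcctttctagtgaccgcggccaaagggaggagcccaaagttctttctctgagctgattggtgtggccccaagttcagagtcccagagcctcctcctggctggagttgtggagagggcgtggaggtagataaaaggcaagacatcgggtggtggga
The Txnip core began 121 bases before the start and the Irs2 variant 37 bases before it. In Ccng2 the variant began 16 bases before the RefSeq start, which lies inside the longer span that GENCODE gives the gene, and is shown with 10 bases on each side (chr5:93267547-93267573, plus strand).
Ccng2: gtcgcagactCAAAACAaaaacaaggg
The E-box CACGTG, a motif bound by MYC, occurred in 4 of the 9 members (Irs2, Bcl6, Cited2 and Klf15, against 8.09% of genes), just before the capitals in Irs2. E-boxes with other letters than these forms were not searched for, so the search cannot tell which members carry MondoA sites. CAGCTG, a form of E-box used by myogenic factors, occurred in Cited2 (18.3% of genes). A match in this window is no evidence of binding, and no match says only that these letters are not in it.

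Compared per transcript length, the members spanned a wide range. In control GM the authors' TPM were highest for Cited2 (179 ± 14.1, mean ± SD, n = 3 here and below), then Gadd45a (91.8 ± 1.85), Txnip (63.0 ± 15.2), Ccng2 (49.0 ± 3.61) and Pdk4 (44.9 ± 7.92). Sesn3 (15 ± 1.59), Klhl24 (11.8 ± 1.76), Bcl6 (8.53 ± 0.680) and Irs2 (3.07 ± 0.295) were lower, and Klf15 was nearly absent (0.0300 ± 0.0265). By 2 days of differentiation Gadd45a led in control cells at 238 ± 27.3 TPM and Cited2 stood at 111 ± 15.6. All values below are CPM, reads scaled to 1000000 per library, which compare libraries for 1 gene but not genes with each other.

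**Figure D1:**
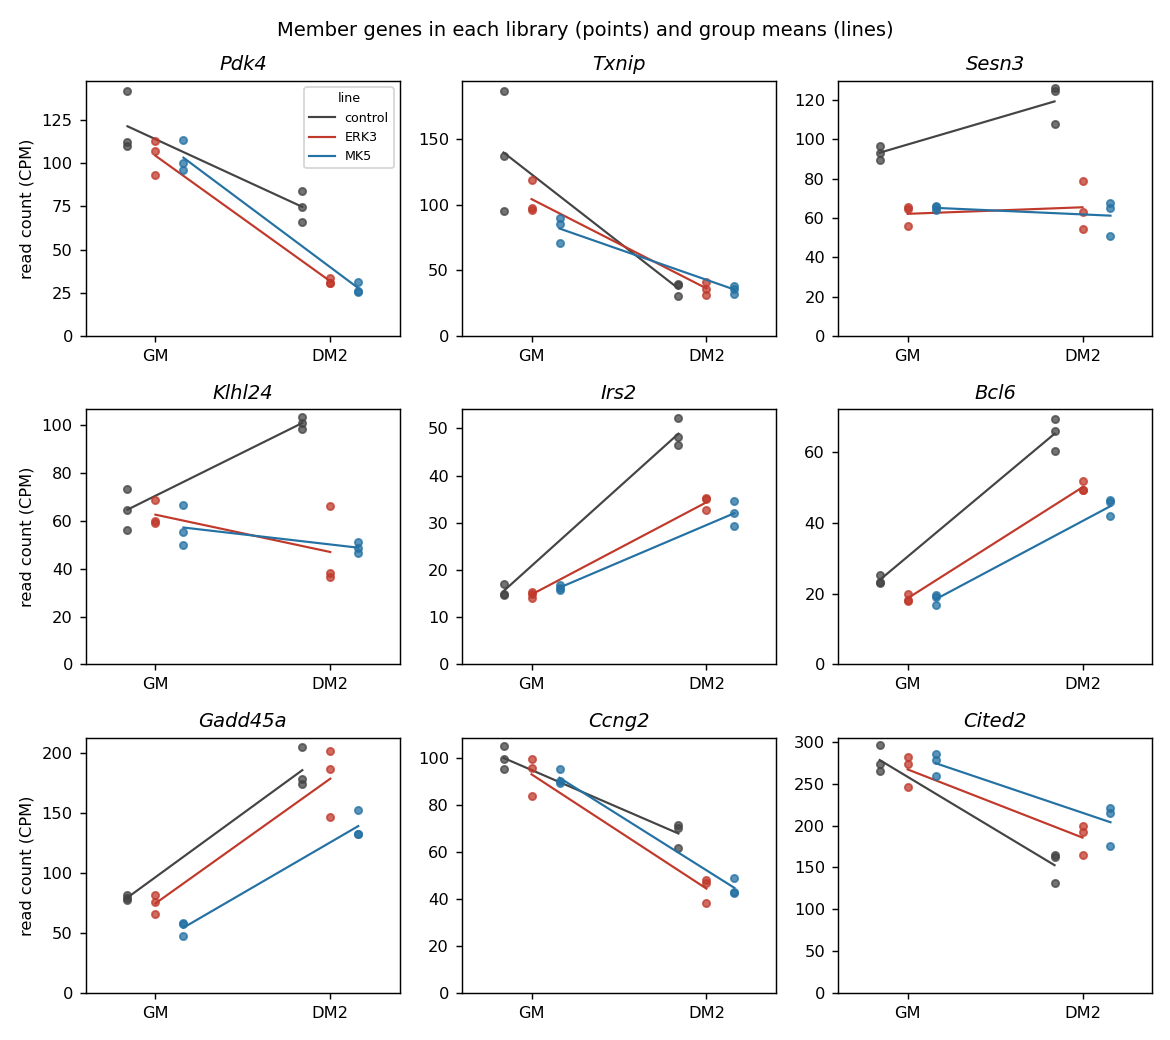
Read counts (CPM, linear axis from 0) of the 9 tested members in GM and at DM2; each point is 1 library, coloured by line, and lines join the means of 3 libraries. Pdk4 and Ccng2 fall in every line and lie lowest in both depleted lines at DM2, whereas Klhl24 goes up only from control GM to control DM2.

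Differentiation moved the members in opposite directions. In bulk RNA, here and below, fewer cells expressing a gene and less of its RNA per cell cannot be told apart. In control cells all 9 tested members were called at an adjusted p under 0.05, when 45.6% of all 13939 genes were (22.5% higher, 23.1% lower): Irs2, Bcl6, Gadd45a, Klhl24 and Sesn3 rose and Txnip, Cited2, Pdk4 and Ccng2 fell. The median log2 fold change of the 9 was 0.36, with a range from -1.95 to 1.65, beside -0.02 for all genes, and GM and DM2 libraries were separate, without overlap, for all 9 (63.4% of genes). In the ERK3 line 8 of 9 were called (55.1% of genes, 28.9% higher and 26.2% lower), 3 higher and 5 lower, with a median of -0.41. The MK5 line had 7 of 9 (49.3%, 24.6% higher and 24.8% lower), 3 higher and 4 lower, and a median of -0.23. GM and DM2 libraries did not overlap for 7 members in the ERK3 line (54.1% of genes) and 7 in the MK5 line (57.4%). Irs2, Bcl6 and Gadd45a were the 3 that rose in the depleted lines.

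In GM the depleted lines differed from control in few members, all of them lower. The ERK3 line had 2 of 9 called lower, Sesn3 and Bcl6, when 6.79% of genes were called (3.72% higher, 3.06% lower), and a median log2 fold change of -0.10 over the 9 members. The MK5 line had 4 of 9 called lower, Txnip, Gadd45a, Sesn3 and Bcl6 (8.45% of genes, 4.71% higher and 3.74% lower). Its median was -0.23. Libraries did not overlap with control for 2 members in ERK3 (31.1% of genes) and 5 in MK5 (32.1%). These GM calls were narrow: each of the 6 was lost without at least 1 single library, at an adjusted p under 0.01 none remained, and on TPM only Gadd45a in the MK5 line was called.

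At DM2 most members were lower in both depleted lines. In the ERK3 line Pdk4, Klhl24, Sesn3, Ccng2, Irs2 and Bcl6 were called lower and Cited2 higher, 7 of 9 where 55.8% of all genes were called (28% higher, 27.8% lower). The MK5 line had the same 6 genes and Gadd45a lower and Cited2 higher, 8 of 9 where 45.1% of all genes were called (22.2% higher, 22.9% lower). The median of the 9 members was -0.51 in the ERK3 line and -0.60 in the MK5 line, beside 0.01 and 0.00 for all genes. Libraries of the depleted and control lines did not overlap for 7 of 9 members in ERK3 (60.3% of genes) and 8 of 9 in MK5 (56.9%), and both comparisons use the same 3 control libraries. The 6 genes called lower in both lines stayed called when any 1 library was left out. They also stayed called without the 4 DM2 libraries with the most reads outside genes, an alternative added after the data were seen that leaves a single DM2 library per depleted line, assumed to vary like the remaining groups. TPM, which were not rescaled between libraries, put the median of all genes at -0.46 in the ERK3 line and -0.29 in the MK5 line at DM2, so TPM-based changes are read against that shift.

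**Figure D2:**
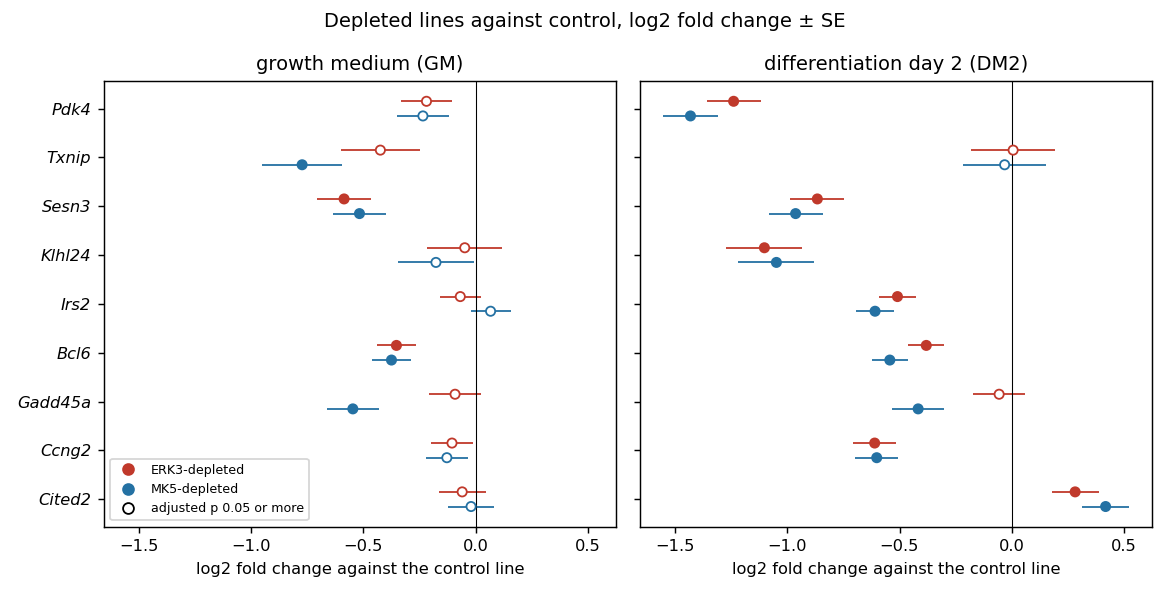
Log2 fold change against the control line for the 9 tested members in GM (left) and at DM2 (right), with bars of 1 SE; filled points have an adjusted p under 0.05. Values in GM lie between -0.77 and 0.07, whereas at DM2 Pdk4 reaches -1.43 and Cited2 lies to the right of 0 in both lines.

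The change from GM to DM2 itself differed from control for 4 of 9 members in the ERK3 line (Klhl24, Pdk4, Ccng2 and Irs2, when 28.6% of genes were called, 14.6% higher and 14% lower) and for 5 of 9 in the MK5 line (the same 4 and Cited2, 18% of genes, 8.54% higher and 9.48% lower). The median difference of the response was -0.28 in the ERK3 line and -0.45 in the MK5 line over the 9 members, and 0.02 and 0.01 over all genes. With reads outside genes (their share) as a covariate, 1 member, Pdk4, was left in the ERK3 line, and without the 4 DM2 libraries also 1. In the MK5 line the same alternatives left 5 and 4. For the myoblast and myotube markers the response difference was called lower for 6 of 11 in the ERK3 line (median -0.78) and 2 of 11 in the MK5 line (median -0.41) and higher for 0 in each. Its part in the members' values was not tested.

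**Figure D3:**
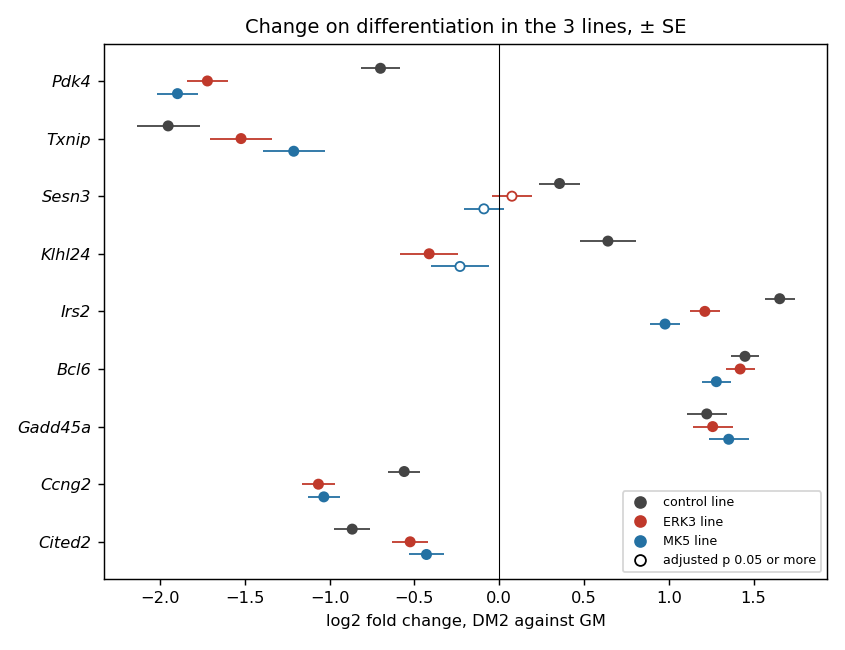
Log2 fold change from GM to DM2 for the 9 tested members in the control, ERK3 and MK5 lines, with bars of 1 SE; filled points have an adjusted p under 0.05. Irs2, Bcl6 and Gadd45a lie right of 0 in all 3 lines, Pdk4, Txnip, Ccng2 and Cited2 left of 0, and Klhl24 lies on opposite sides in the control and depleted lines.

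Pdk4 encodes a kinase of mitochondria that phosphorylates and shuts the pyruvate dehydrogenase complex, so that carbon from glucose is spared and fat is burned. Its locus is chromosome 6, 5483351 to 5496309, minus strand (ENSMUSG00000019577.6, GENCODE M21 on GRCm38, as for all members). The 3 libraries read 109.9, 112 and 142 CPM in control GM. They read 107, 93.4 and 113 in ERK3 GM and 96.2, 100.1 and 113 in MK5 GM. At DM2 they read 83.9, 74.5 and 65.8 in control, 30.6, 33.6 and 30.8 in ERK3 and 25.4, 31.5 and 26.3 in MK5. The GM groups overlapped, every DM2 library lay below every GM library, and the depleted DM2 libraries lay below all control ones without overlap. Pdk4 fell 1.62-fold on differentiation in control cells (log2 -0.70 ± 0.12, adjusted p = 8.15e-05), 3.29-fold in the ERK3 line (-1.72 ± 0.12, adjusted p = 5.05e-09) and 3.72-fold in the MK5 line (-1.90 ± 0.12, adjusted p = 1.74e-09). The response differed from control by -1.02 ± 0.17 in the ERK3 line (adjusted p = 0.00177) and by -1.20 ± 0.17 in the MK5 line (adjusted p = 0.00134). At DM2 it was 2.36-fold lower than control in the ERK3 line (log2 -1.24 ± 0.12, adjusted p = 3.09e-06) and 2.70-fold lower in the MK5 line (-1.43 ± 0.12, adjusted p = 8.94e-07). In GM the differences, -0.22 ± 0.11 and -0.23 ± 0.11, were not called (adjusted p = 0.258 and 0.223). Without the 4 DM2 libraries with most reads outside genes the DM2 differences of Pdk4 were -1.28 and -1.50.

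Values of the other enzymes of the pyruvate dehydrogenase switch lay closer to 0. Among the other kinases, Pdk1 was lower in the ERK3 line at DM2 (log2 -0.38 ± 0.10, adjusted p = 0.00299) and not called in the MK5 line (-0.07 ± 0.10, adjusted p = 0.585). Pdk3 was lower in both (-0.36 ± 0.07, adjusted p = 0.000407, and -0.19 ± 0.07, adjusted p = 0.0373), and Pdk2 was not called in either (-0.40 ± 0.18, adjusted p = 0.0612, and -0.38 ± 0.18, adjusted p = 0.0895). Pdp1, the phosphatase that opposes Pdk4 and reopens the complex, was lower in both lines too (-0.63 ± 0.14, adjusted p = 0.000893, and -0.85 ± 0.14, adjusted p = 0.000172).

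Txnip encodes an arrestin-like protein that binds thioredoxin and holds back glucose uptake, and its RNA is a sensitive reporter of glucose through MondoA. The gene spans 96557957 to 96561883 of chromosome 3, plus strand (ENSMUSG00000038393.14), inside the span of the antisense gene Gm15441. The libraries read 95.4, 186 and 137 CPM in control GM, 96.0, 119 and 97.8 in ERK3 GM and 85.1, 89.6 and 70.7 in MK5 GM. At DM2 all 9 read between 30.5 and 41.4 CPM, with the 3 lines intermingled. The control GM libraries lay far apart, and the lowest of them was below all 3 ERK3 ones but above all MK5 ones. Txnip fell 3.87-fold on differentiation in control cells (log2 -1.95 ± 0.19, adjusted p = 1.71e-07), 2.87-fold in the ERK3 line (-1.52 ± 0.19, adjusted p = 3.46e-06) and 2.32-fold in the MK5 line (-1.21 ± 0.18, adjusted p = 4.35e-05). In GM it was 1.71-fold lower in the MK5 line (log2 -0.77 ± 0.18, adjusted p = 0.0153), a call lost without control library 2, MK5 library 1 or MK5 library 3 (highest adjusted p = 0.129). The ERK3 difference of -0.42 ± 0.18 was not called (adjusted p = 0.151), but was without control library 1 (adjusted p = 0.0157) and with no filter on low counts (adjusted p = 0.00353). At DM2 the differences were 0.01 ± 0.19 and -0.03 ± 0.19, with 95% intervals from -0.38 to 0.40 and from -0.42 to 0.36. The response of the MK5 line differed from control by 0.74 ± 0.26, just outside the threshold (adjusted p = 0.0530; 0.0303 by DESeq2), and that of the ERK3 line by 0.43 ± 0.26 (adjusted p = 0.216). Of its relatives among the alpha-arrestins at DM2, Arrdc3 was lower in both lines (-0.73 ± 0.15, adjusted p = 0.000505, and -0.64 ± 0.15, adjusted p = 0.00196). Arrdc2 was higher in the ERK3 line (0.58 ± 0.20, adjusted p = 0.0225) and not called in the MK5 line (0.11 ± 0.21, adjusted p = 0.682). Mlxip, the gene of MondoA, rose on differentiation in control cells (0.43 ± 0.13, adjusted p = 0.00957). In the depleted lines its change was not called (-0.09 ± 0.13, adjusted p = 0.556, in ERK3 and 0.13 ± 0.13, adjusted p = 0.412, in MK5). At DM2 it was lower than control in the ERK3 line (-0.68 ± 0.13, adjusted p = 0.000248), as was its partner gene Mlx (-0.24 ± 0.09, adjusted p = 0.0222). Their part in the Txnip values was not tested.

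Klf15, a zinc-finger factor through which fasting and glucocorticoids raise amino acid breakdown in muscle, was close to undetected. On chromosome 6 it spans 90462576 to 90475238, plus strand (ENSMUSG00000030087.11). Its count was 0 to 4 reads in a library, 0 in 7 of 18, where a count of 0 allows up to 0.126 to 0.186 CPM (3 counts, counting error only). It did not pass the filter and no comparison was made. Of the 6 other Kruppel-like genes tested, Klf5 was lower in both depleted lines at DM2 (log2 -0.56 ± 0.17, adjusted p = 0.00904, in ERK3 and -1.21 ± 0.17, adjusted p = 5.75e-05, in MK5). Klf2, Klf4, Klf6, Klf9 and Klf10 were not called in either line. Among 11 genes of amino acid breakdown, a process Klf15 controls, 10 were tested. The list holds enzymes of the branched-chain pathway and also Gpt, Gpt2 and Prodh, which act on other amino acids, so its counts are not those of that pathway alone. In number, 2 were called higher and 2 lower in each depleted line at DM2, with a median log2 fold change of -0.06 in ERK3 and 0.05 in MK5. In the ERK3 line the largest were Bckdhb (-1.36 ± 0.50, adjusted p = 0.0267, at most 14 reads in a library) and Gpt (0.93 ± 0.20, adjusted p = 0.000711), an alanine aminotransferase that was also higher in MK5 (0.72 ± 0.20, adjusted p = 0.00722). Of 11 glucocorticoid-response genes 9 were tested, and in each depleted line at DM2 1 was higher, Ddit4, and 2 were lower, among them Nr3c1, the glucocorticoid receptor (-0.62 ± 0.11, adjusted p = 0.000131, in ERK3 and -0.72 ± 0.11, adjusted p = 8.59e-05, in MK5).

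Irs2 encodes the adaptor that carries the signal from the insulin receptor to PI3 kinase, and its induction by FoxO is a feedback that restores insulin sensitivity. Its locus is chromosome 8, 10984681 to 11008458, minus strand (ENSMUSG00000038894.7). The libraries read 17.0, 14.9 and 14.8 CPM in control GM, 15.4, 14.9 and 14.1 in ERK3 GM and 15.8, 16.9 and 16.1 in MK5 GM. At DM2 they read 48.1, 52.1 and 46.4 in control, 35.3, 35.0 and 32.8 in ERK3 and 29.3, 32.1 and 34.7 in MK5. The GM libraries of the depleted lines overlapped with control, and at DM2 all control libraries lay above all depleted ones. Irs2 rose 3.15-fold on differentiation in control cells (log2 1.65 ± 0.09, adjusted p = 1.58e-10), 2.32-fold in the ERK3 line (1.21 ± 0.09, adjusted p = 7.67e-09) and 1.97-fold in the MK5 line (0.98 ± 0.09, adjusted p = 9.00e-08). The response differed from control by -0.44 ± 0.12 (adjusted p = 0.0149) and -0.68 ± 0.12 (adjusted p = 0.00472). At DM2 the level was 1.42-fold lower in the ERK3 line (log2 -0.51 ± 0.08, adjusted p = 8.04e-05) and 1.53-fold lower in the MK5 line (-0.61 ± 0.08, adjusted p = 4.67e-05). The ERK3 response difference kept its size but not its call with outside reads as a covariate (-0.43, adjusted p = 0.149) and without the 4 DM2 libraries (-0.53, adjusted p = 0.0522). Irs1, the other insulin receptor substrate expressed here, was at 34.1 TPM in control DM2 against 10.8 for Irs2. At DM2 its log2 fold change was -0.21 ± 0.09 in the ERK3 line (adjusted p = 0.0581, not called) and -0.26 ± 0.09 in the MK5 line (adjusted p = 0.0289, lower). Irs4 had no read.

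Sesn3 encodes a sestrin, a leucine-sensing family that restrains mTORC1 and oxidative damage. The gene spans 14275067 to 14333101 of chromosome 9, plus strand (ENSMUSG00000032009.8). It read 89.6, 96.8 and 93.1 CPM in control GM, 56.2, 64.4 and 65.8 in ERK3 GM and 65.4, 63.9 and 66.0 in MK5 GM. At DM2 it read 108, 124 and 126 in control, 54.5, 63.2 and 78.6 in ERK3 and 50.9, 67.4 and 65.3 in MK5. Control libraries lay above all libraries of both depleted lines in each medium, which among the 9 members held for Sesn3 and Bcl6. In GM Sesn3 was 1.5-fold lower in the ERK3 line (log2 -0.59 ± 0.12, adjusted p = 0.0140) and 1.43-fold lower in the MK5 line (-0.52 ± 0.12, adjusted p = 0.0151). These calls were lost without control library 2 or 3, the first also without ERK3 library 1 and the second without MK5 library 1 or 3. At DM2 it was 1.82-fold lower in the ERK3 line (-0.87 ± 0.12, adjusted p = 1.79e-05) and 1.95-fold lower in the MK5 line (-0.96 ± 0.12, adjusted p = 2.29e-05). It rose 1.28-fold on differentiation in control cells (0.36 ± 0.12, adjusted p = 0.0196), a call lost with length and GC trends removed (0.15, adjusted p = 0.248), on TPM (0.44, adjusted p = 0.0619) and without control GM library 1 or 3 or control DM2 library 2 or 3. In the depleted lines it was not called (0.08 ± 0.12, adjusted p = 0.613, and -0.09 ± 0.12, adjusted p = 0.556), but without the 4 DM2 libraries the ERK3 value was 0.34 and called (adjusted p = 0.0234), close to the control one. The difference of these responses from control was not called for it either (-0.28 ± 0.17, adjusted p = 0.218, and -0.45 ± 0.17, adjusted p = 0.0708). Within the family, Sesn1 was lower at DM2 in both lines (-0.56 ± 0.10, adjusted p = 0.000196, and -0.54 ± 0.10, adjusted p = 0.000463). Sesn2, the member best known as a target of the amino acid stress response, was not called (0.02 ± 0.09, adjusted p = 0.831, and 0.15 ± 0.09, adjusted p = 0.187).

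Klhl24 encodes a substrate adaptor of a cullin ubiquitin ligase that marks intermediate filament proteins for breakdown. On chromosome 16 it spans 20097542 to 20129221, plus strand (ENSMUSG00000062901.2). The libraries read 56.1, 64.6 and 73.6 CPM in control GM, 59.2, 59.9 and 69.0 in ERK3 GM and 66.8, 49.8 and 55.2 in MK5 GM, with all 3 groups overlapping. At DM2 they read 101, 103 and 98.5 in control, 38.2, 36.7 and 66.3 in ERK3 and 51.2, 46.7 and 48.6 in MK5. Control lay above all others. Of the ERK3 DM2 libraries, the third, with the smallest share of reads outside genes, was the highest. Klhl24 rose 1.56-fold on differentiation in control cells (log2 0.64 ± 0.17, adjusted p = 0.00434) and had negative values in the depleted lines (-0.41 ± 0.17, adjusted p = 0.0476, in ERK3 and -0.23 ± 0.17, adjusted p = 0.269, in MK5). The ERK3 fall was lost without any of 15 single libraries (all but MK5 GM 1, ERK3 DM2 3 and MK5 DM2 3), and its sign turned without the 4 DM2 libraries (0.08, adjusted p = 0.729) and with outside reads as a covariate (0.03, adjusted p = 0.929). The response differed from control by -1.05 ± 0.24 in the ERK3 line (adjusted p = 0.00570), or -0.58 (adjusted p = 0.0952) without the 4 libraries, and -0.87 ± 0.24 in the MK5 line (adjusted p = 0.0217), lost without control GM library 1 or 2, MK5 GM library 1 or MK5 DM2 library 1 (highest adjusted p = 0.0622) and with length and GC trends removed (-0.59, adjusted p = 0.0903). At DM2 Klhl24 was 2.15-fold lower in the ERK3 line (-1.10 ± 0.17, adjusted p = 4.81e-05), but -0.61 (adjusted p = 0.0113) without the 4 libraries, and 2.07-fold lower in the MK5 line (-1.05 ± 0.17, adjusted p = 0.000161; -1.04 without them).

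Gadd45a encodes a small protein induced by DNA damage and other stress that slows the cell cycle. Its locus is chromosome 6, 67035096 to 67037457, minus strand (ENSMUSG00000036390.8), and overlaps E230016M11Rik on the other strand. The libraries read 79.2, 82.1 and 77.5 CPM in control GM, 82.0, 76.1 and 66.2 in ERK3 GM and 58.2, 57.9 and 47.4 in MK5 GM. At DM2 they read 205, 178 and 174 in control, 202, 187 and 147 in ERK3 and 132, 153 and 132 in MK5. ERK3 overlapped with control in both media, and MK5 lay below control in both. It rose on differentiation in every line by 2.34-fold to 2.56-fold (log2 1.22 ± 0.12 in control, 1.26 ± 0.12 in ERK3 and 1.35 ± 0.12 in MK5, highest adjusted p = 1.50e-07). In the MK5 line it was 1.46-fold lower than control in GM (log2 -0.55 ± 0.12, adjusted p = 0.0109, lost without control library 2 or MK5 library 3) and 1.34-fold lower at DM2 (-0.42 ± 0.11, adjusted p = 0.00689). In the ERK3 line it was not called (-0.09 ± 0.12, adjusted p = 0.673, and -0.06 ± 0.11, adjusted p = 0.696). With length and GC trends removed the DM2 difference was -0.40 (adjusted p = 0.000888) and on TPM -0.52, but 0.13 on counts without strand. Its relative Gadd45g was higher at DM2 in both lines (0.82 ± 0.13, adjusted p = 6.07e-05, and 0.66 ± 0.13, adjusted p = 0.000698). Gadd45b was not called (0.23 ± 0.10, adjusted p = 0.0638, and 0.00 ± 0.10, adjusted p = 0.996).

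Ccng2 encodes an unconventional cyclin that accompanies cell cycle arrest. The gene spans 93267257 to 93276231 of chromosome 5, plus strand (ENSMUSG00000029385.14). It read 95.6, 99.5 and 105 CPM in control GM, 99.8, 83.8 and 95.9 in ERK3 GM and 90.1, 95.5 and 89.4 in MK5 GM. At DM2 the values were 71.4, 70.5 and 61.9 in control, 48.2, 38.3 and 46.9 in ERK3 and 42.8, 48.8 and 42.8 in MK5. All DM2 libraries lay below all GM ones, and at DM2 the depleted lines lay below control. Ccng2 fell 1.47-fold on differentiation in control cells (log2 -0.56 ± 0.09, adjusted p = 0.000103; on TPM -0.38, adjusted p = 0.0566), 2.09-fold in the ERK3 line (-1.07 ± 0.10, adjusted p = 1.13e-07) and 2.05-fold in the MK5 line (-1.03 ± 0.10, adjusted p = 1.41e-07). The responses differed from control by -0.51 ± 0.13 (adjusted p = 0.0117) and -0.47 ± 0.13 (adjusted p = 0.0248), the second a call lost without any of 7 single libraries (control 1 or 2 in either medium, MK5 GM 1 or 3, MK5 DM2 1, highest adjusted p = 0.0727) and the first without the 4 DM2 libraries (-0.45, adjusted p = 0.0868). With length and GC trends removed the MK5 response difference was -0.26 (adjusted p = 0.136). At DM2 Ccng2 was 1.53-fold lower in the ERK3 line (-0.61 ± 0.10, adjusted p = 5.50e-05) and 1.52-fold lower in the MK5 line (-0.60 ± 0.10, adjusted p = 0.000143), against -0.37 and -0.36 with length and GC trends removed. Ccng1, a cyclin G under p53, was not called at DM2 in either line (-0.17 ± 0.11, adjusted p = 0.204, and -0.24 ± 0.11, adjusted p = 0.0931).

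Bcl6 encodes a zinc-finger repressor, known from germinal centre B cells and also present in myoblasts. On chromosome 16 it spans 23965052 to 23988852, minus strand (ENSMUSG00000022508.5). It read 25.2, 23.3 and 23.0 CPM in control GM, 19.8, 18 and 18.2 in ERK3 GM and 19.0, 16.7 and 19.5 in MK5 GM. Its DM2 values were 60.2, 65.8 and 69.3 in control, 49.2, 51.7 and 49.1 in ERK3 and 41.8, 46.5 and 45.8 in MK5. Control lay above both depleted lines in both media without overlap, and every DM2 library above every GM one. Bcl6 rose by 2.73-fold in control cells (log2 1.45 ± 0.08), 2.68-fold in the ERK3 line (1.42 ± 0.08) and 2.43-fold in the MK5 line (1.28 ± 0.08, highest adjusted p = 2.21e-09). The differences of the response from control, -0.03 ± 0.12 and -0.17 ± 0.12, were not called (adjusted p = 0.874 and 0.314). In GM it was 1.28-fold lower in the ERK3 line (-0.35 ± 0.09, adjusted p = 0.0229, lost without any 1 of the 6 libraries compared) and 1.30-fold lower in the MK5 line (-0.37 ± 0.08, adjusted p = 0.0141, lost without control library 2 or MK5 library 1). At DM2 it was 1.30-fold lower in the ERK3 line (-0.38 ± 0.08, adjusted p = 0.000662), or -0.22 with length and GC trends removed, and 1.46-fold lower in the MK5 line (-0.54 ± 0.08, adjusted p = 7.73e-05).

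Cited2 encodes a coactivator that competes for p300 and CBP and so restrains hypoxia-inducible transcription. Its locus is chromosome 10, 17723218 to 17725674, plus strand (ENSMUSG00000039910.10). It read 265, 274 and 296 CPM in control GM, 274, 246 and 282 in ERK3 GM and 259.5, 279 and 285 in MK5 GM. The DM2 values were 165, 162 and 131 in control, 200, 165 and 192 in ERK3 and 221, 215 and 176 in MK5. The GM groups overlapped, and at DM2 the highest control library lay just under the lowest ERK3 one. Cited2 fell 1.82-fold on differentiation in control cells (log2 -0.87 ± 0.11, adjusted p = 2.72e-06), 1.44-fold in the ERK3 line (-0.52 ± 0.10, adjusted p = 0.000408) and 1.35-fold in the MK5 line (-0.43 ± 0.10, adjusted p = 0.00256). At DM2 it was the 1 member called higher in the depleted lines, by 1.22-fold in ERK3 (0.28 ± 0.10, adjusted p = 0.0292) and by 1.34-fold in MK5 (0.42 ± 0.10, adjusted p = 0.00378). On TPM as deposited the sign turned in ERK3 (-0.31, adjusted p = 0.0767) and the MK5 value was 0.04 (adjusted p = 0.835). Both TPM values still lay above the TPM median of all genes given above. Both calls were also lost with length and GC trends removed (0.12, adjusted p = 0.378, and 0.27, adjusted p = 0.0679) and without the 4 DM2 libraries (0.32, adjusted p = 0.0691, and 0.22, adjusted p = 0.212). The ERK3 call was also lost without control DM2 library 3, ERK3 DM2 library 1 or ERK3 DM2 library 3. It was further lost with outside reads as a covariate (0.34, adjusted p = 0.133), with only the libraries compared (0.29, adjusted p = 0.0672) and with no filter on low counts (0.24, adjusted p = 0.0580). The response of the MK5 line differed from control by 0.44 ± 0.15 (adjusted p = 0.0474), lost without any of 14 single libraries (all but ERK3 GM 2, ERK3 DM2 2 and 3 and MK5 DM2 3), and that of the ERK3 line by 0.34 ± 0.15 (adjusted p = 0.0900). The MK5 value shrank to 0.26 with length and GC trends removed (adjusted p = 0.289), 0.09 on TPM (adjusted p = 0.768) and 0.23 without the 4 DM2 libraries (adjusted p = 0.344). Its relative Cited1 was higher at DM2 in both lines (2.28 ± 0.45, adjusted p = 0.000359, and 2.36 ± 0.44, adjusted p = 0.000424), on 1 to 7 reads in a control library and 13 to 24 in a depleted one.

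**Figure D4:**
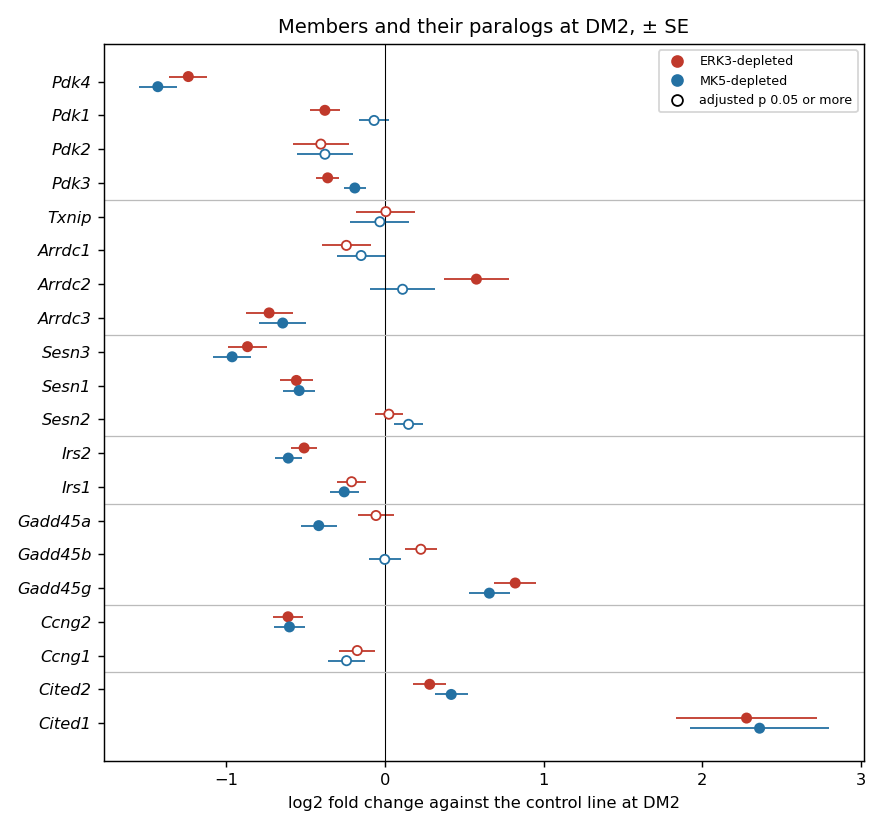
Log2 fold change against the control line at DM2 for 7 members and the paralogs of each that were tested, grouped by family, with bars of 1 SE; filled points have an adjusted p under 0.05. Pdk4 at -1.24 and -1.43 lies left of its 3 paralogs, Sesn1 follows Sesn3 while Sesn2 lies near 0, and Gadd45g lies on the opposite side of 0 from Gadd45a in the MK5 line.

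Between the ERK3 and MK5 lines no member was called in either medium (0 of 13939 genes, 0%, by edgeR in each medium, with 1167 genes in GM and 2741 at DM2 at an unadjusted p under 0.05, 1 of the 9 members in each). DESeq2 called 2 genes in GM and 213 at DM2 and limma-voom 0 and 2, none of them a member. Log2 differences of the members ranged from -0.46 to 0.13 in GM and from -0.36 to 0.14 at DM2. The lowest in both media was Gadd45a (-0.46 ± 0.12, 95% interval -0.70 to -0.21, adjusted p = 0.362, and -0.36 ± 0.11, interval -0.60 to -0.12, adjusted p = 0.143). With the replicate number as a block, which the DM2 libraries of these lines share, the DM2 difference of Gadd45a was called (-0.35, adjusted p = 0.0419), as it was without ERK3 DM2 library 3 (-0.46, adjusted p = 0.00416).

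Across the 18 libraries the members fell into few patterns. Pearson's r of log2 CPM, given as a description over libraries that share lines and media, was 0.97 between Pdk4 and Ccng2, 0.97 between Irs2 and Bcl6, 0.95 between Bcl6 and Gadd45a and 0.81 between Sesn3 and Klhl24. Cited2 ran opposite to Irs2 (-0.94) and Bcl6 (-0.925), and Txnip to Irs2 (-0.90). Among 10043 genes with a mean of at least 5 CPM, those most like Pdk4 were Maoa (0.98) and Crot (0.98), an oxidase of monoamines and a carnitine acyltransferase of peroxisomes. Ccng2 was most like Slc19a2 (0.98) and Car13 (0.98), Txnip like Lxn (0.98) and Prg4 (0.97), and Irs2 like Ip6k3 (0.99) and Dio2 (0.98), the enzyme that activates thyroid hormone. Bcl6 was nearest to Pdzrn3 (0.99) and Mafk (0.99), Gadd45a to Inhbb (0.98) and Hopx (0.98), and Cited2 to Bnip3 (0.96) and Psrc1 (0.95). Sesn3 was nearest to Cdk14 (0.96) and Extl3 (0.95), and Klhl24 to Kat2b (0.95) and Chst11 (0.94).

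The wider pathways around the members were mixed at DM2. Of 39 other FoxO targets 36 were tested, 5 higher and 13 lower in the ERK3 line and 5 higher and 16 lower in the MK5 line, with medians of -0.09 and -0.22. The background of each list count here is the share of all genes tested, 28% higher and 27.8% lower in ERK3 against 22.2% higher and 22.9% lower in MK5. The muscle ubiquitin ligase Trim63 was lower in both (log2 -0.86 ± 0.16, adjusted p = 0.000277, and -1.30 ± 0.17, adjusted p = 2.68e-05). Fbxo32 was called lower in the MK5 line (-0.40 ± 0.11, adjusted p = 0.00696) and missed the threshold in the ERK3 line (-0.26 ± 0.11, adjusted p = 0.0501). Rbl2, a pocket protein of quiescence, was among the lowest (-1.22 ± 0.11, adjusted p = 2.93e-06, and -1.12 ± 0.11, adjusted p = 3.28e-06). G6pc, the glucose-releasing enzyme of liver, had 7 to 20 reads in each of the 6 control libraries and none in the 12 depleted ones. Of the 26 FoxO factors and regulators, all tested, 13 were lower in each depleted line and 4 (ERK3) or 2 (MK5) higher, against those shares. Pdpk1, a kinase that activates Akt, was lower in both (-1.06 ± 0.14, adjusted p = 9.55e-06, and -0.89 ± 0.13, adjusted p = 8.81e-05). The coactivator Crebbp was the highest of the list in both (1.58 ± 0.20, adjusted p = 9.34e-06, and 0.87 ± 0.20, adjusted p = 0.00199). Sesn1 and Irs1 are in more than 1 of these lists.

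Beside the same shares of all genes, of 20 genes of glucose use 9 were higher in each depleted line at DM2 and 4 (ERK3) or 3 (MK5) lower, with medians of 0.33 and 0.28. Eno1, an enolase of glycolysis, was higher (1.32 ± 0.17, adjusted p = 9.41e-06, and 1.08 ± 0.17, adjusted p = 0.000112). Pfkm, the muscle form of phosphofructokinase, was lower (-1.18 ± 0.12, adjusted p = 4.23e-06, and -0.71 ± 0.12, adjusted p = 0.000227). Of 18 genes of fatty acid oxidation and PPAR targets 13 were tested, with 1 higher and 6 lower in the ERK3 line and 0 higher and 4 lower in the MK5 line, and medians of -0.16 and -0.18. The 1 called higher in the ERK3 line was Fabp3 (0.71 ± 0.30, adjusted p = 0.0481). Cpt1a, which admits fatty acids to mitochondria, was lower in both lines (-0.87 ± 0.09, adjusted p = 4.54e-06, and -0.73 ± 0.09, adjusted p = 2.92e-05), and already in GM (-0.51 ± 0.09, adjusted p = 0.00952, and -0.45 ± 0.09, adjusted p = 0.00884).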

How the data were processed

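Poly-A RNA libraries of 18 samples were sequenced by the authors, and the submitters' processing notes name bcl2fastq 2.17, STAR 2.5.1b, RSEM 1.2.28 and GRCm38 without roles. The deposited read counts per gene, which the labels do not trace to a counter, have columns without strand and for each strand, of which the reverse-strand column was used. The deposited expected counts (rounded here) and TPM are RSEM output, per the file headers. Summary lines (reads unmapped, multimapped, ambiguous or outside genes), 21.7 to 35.8% of a library, were left out. Counts per gene were fitted in edgeR 4.0.16 (R 4.3.3) with filterByExpr, TMM, robust quasi-likelihood and a mean for each of the 6 groups (18 libraries, 12 residual degrees of freedom), and Benjamini-Hochberg adjustment over 13939 genes within each of 11 contrasts; a call is an adjusted p under 0.05. Levels are TMM-scaled CPM, and log2 CPM for correlations used a prior count of 2. The model shares 1 spread per gene over the 6 groups, although the groups were unlike in spread. Squared differences between 2 libraries of a group averaged 26.2 to 96.6 times the counting variance in ERK3 DM2 and 8.69 to 48.0 times in MK5 DM2. In the other groups they averaged 8.86 to 18.8 times. The fit was also run on simulated counts, but these had 1 spread per gene in all groups. That run therefore does not bear on groups unlike in spread. Alternatives used limma 3.58.1 (voom, or log2(TPM + 1) for genes with 1 TPM in 3 libraries), DESeq2 1.42.0, other size factors and filters, unstranded or expected counts, offsets removing length and GC trends (splines, 5 degrees of freedom), outside reads as a covariate, the replicate number as a block, and each library left out; tables were made with pandas 2.3.3 on Python 3.11.15. Same-numbered libraries deviated together in every pair (correlation over 0.1) for ERK3 against control in both media, MK5 against control in GM, ERK3 DM2 against GM and MK5 against ERK3 at DM2. Text names the 10 members, the targeted and FoxO genes, Fbxo32 and Trim63, and some of the tested paralogs and partners. It also names up to 2 called genes with the largest change in each other list, and the 2 genes most alike in pattern. Members and lists were chosen with earlier results of these data known. Genome positions are from GENCODE M21 (50376 of 50600 identifiers matched). A gene of a wider list is not reported here.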

Additional observations from a re-analysis of the deposited data

Results flagged for a closer look

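The response to differentiation medium was unlike that of the control line, by an interaction term in edgeR's quasi-likelihood test, for 4 members in the ERK3 line and 5 in the MK5 line. For Pdk4 the log2 difference was -1.02 ± 0.17 in ERK3 (adjusted p = 0.00177) and -1.20 ± 0.17 in MK5 (adjusted p = 0.00134). Klhl24 differed by -1.05 ± 0.24 in ERK3 (adjusted p = 0.00570) and -0.87 ± 0.24 in MK5 (adjusted p = 0.0217). Irs2 differed by -0.44 ± 0.12 in ERK3 (adjusted p = 0.0149) and -0.68 ± 0.12 in MK5 (adjusted p = 0.00472). Ccng2 differed by -0.51 ± 0.13 in ERK3 (adjusted p = 0.0117) and -0.47 ± 0.13 in MK5 (adjusted p = 0.0248). Cited2 differed by 0.44 ± 0.15 in MK5 (adjusted p = 0.0474). The differences in the 2 lines rest on the same control libraries.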

How the results depend on the processing

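Of 54 called differences of single members, 42 kept their call without any 1 of the 18 libraries and 12 lost it without at least 1; RLE size factors, limma-voom and RSEM expected counts changed no call of the 71 member results compared. Depth limited only Klf15. The cause of the changes below was not tested. For ERK3 against control in GM the 2 called members became 0 at an adjusted p under 0.01, 1 with only the libraries compared and 0 on TPM, and ranged from 0 to 2 without single libraries; for MK5 the 4 became 0 at 0.01 and 1 on TPM, and ranged from 0 to 4. MK5 against ERK3 went from 0 to 1 member without a filter in each medium and, at DM2, with the replicate block and with length and GC offsets plus the block (1 each), and ranged from 0 to 2 without single libraries at DM2. The ERK3 response difference went from 4 members to 2 at 0.01, 1 with outside reads as a covariate and 1 without the 4 DM2 libraries, and ranged from 4 to 5; the MK5 one from 5 to 2 at 0.01, 2 with length and GC offsets and 3 with the block added, and ranged from 2 to 6. Under the replicate block alone, the MK5 response differences of Txnip (0.73, adjusted p = 0.0350) and Sesn3 (-0.45, adjusted p = 0.0143) were also called, and beside Gadd45a no other member's call changed.

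Signs turned for these values, of which the Klhl24 change and the Cited2 difference at DM2 were called. Sesn3 from GM to DM2 in ERK3 (0.08) was -0.047 with length and GC offsets, -0.0495 with the block added and -0.41 on TPM but 0.34 and called without the 4 DM2 libraries, with -0.086 to 0.20 without single libraries, and in MK5 (-0.09) it was 0.022 without the 4 DM2 libraries and -0.16 to 0.038 without single ones. Klhl24 from GM to DM2 in ERK3 (-0.41) was 0.028 with the covariate and 0.080 without the 4 libraries. Txnip in ERK3 at DM2 (0.01) was -0.032 without a filter, -0.0041 with 1 CPM in 3 libraries, -0.0056 with length and GC offsets, -0.0073 without the 4 libraries and -0.10 to 0.092 without single ones. Txnip in MK5 at DM2 (-0.03) was 0.17 unstranded, 0.023 with the covariate, 0.11 on TPM and -0.14 to 0.031 without single libraries. Gadd45a in ERK3 at DM2 (-0.06) was 0.13 unstranded and -0.15 to 0.051 without single libraries. Cited2 on TPM was -0.31 in ERK3 at DM2 and -0.15 for the ERK3 response difference, the first still above the TPM median of all genes given above.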
